A study of Rattus norvegicus with 144 samples.

Results

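The genes described here are 3 members of the cytochrome P450 family 1 (Cyp1a1, Cyp1a2 and Cyp1b1), the aryl hydrocarbon receptor Ahr, and 2 of its feedback targets, Ahrr and Tiparp. They were chosen by symbol: every probe set whose platform annotation gives one of these 6 symbols was taken, whatever its values. Of 14217 genes and 31042 probe sets in the larger of 2 deposited tables, these were 6 genes with 8 probe sets. The smaller table, with 10411 genes and 15866 probe sets, held 5 of the genes with 6 probe sets, since it has no Ahrr probe set and 1 of 2 for Tiparp. A probe set is a group of short probes on an Affymetrix array that together read 1 transcript.

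Male Sprague Dawley rats, 8 to 10 weeks old, received the compound AMG A at 3 or 30 mg/kg or AMG B at 3 or 60 mg/kg orally each day, and same-study controls received 0 mg/kg. Tissues were taken after 1, 4 and 14 days in a toxicology design aimed at changes tied to inhibition of blood vessel growth. Liver was profiled at all 3 times for both compounds, the adrenal gland at all 3 times for AMG B and on day 14 for AMG A, and the pancreas on day 14 for both. This gave 144 arrays from 72 animals in 36 groups of 4, and the livers of the AMG A study were run on the smaller array. Beyond the names AMG A and AMG B nothing is stated here of the compounds.

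AHR is a transcription factor that a ligand switches on. Without ligand it sits in the cytosol with HSP90 and PTGES3; with ligand it enters the nucleus, pairs with ARNT and binds DNA at elements built round the core GCGTG. Its best known targets are the P450 genes of family 1, whose enzymes oxidise planar aromatic compounds, and the brakes AHRR, a repressor that competes for ARNT, and TIPARP, an ADP-ribosyltransferase that lowers AHR activity. In rat liver CYP1A2 is made without inducers, CYP1A1 is close to absent until it is induced, and CYP1B1 is known mainly from tissues other than liver, the rat adrenal cortex among them.

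The promoters show where the core letters lie in the genes read here. RefSeq sequence of build GRCr8, 300 bases a gene, most of them before its start, was found for 5 of the 6 genes, all but Cyp1a1. The lines below give Cyp1a2, which changed in liver, and the 3 other targets, which did not pass the test for dose. Each is written 5′ to 3′ on the gene's strand, and capitals mark the core GCGTG or, on the other strand, CACGC.
Cyp1a2: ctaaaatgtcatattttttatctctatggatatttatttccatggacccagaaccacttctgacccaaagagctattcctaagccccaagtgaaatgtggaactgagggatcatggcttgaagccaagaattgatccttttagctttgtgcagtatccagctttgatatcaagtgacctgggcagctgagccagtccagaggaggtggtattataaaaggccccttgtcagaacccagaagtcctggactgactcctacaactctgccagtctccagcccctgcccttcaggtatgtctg
Cyp1b1: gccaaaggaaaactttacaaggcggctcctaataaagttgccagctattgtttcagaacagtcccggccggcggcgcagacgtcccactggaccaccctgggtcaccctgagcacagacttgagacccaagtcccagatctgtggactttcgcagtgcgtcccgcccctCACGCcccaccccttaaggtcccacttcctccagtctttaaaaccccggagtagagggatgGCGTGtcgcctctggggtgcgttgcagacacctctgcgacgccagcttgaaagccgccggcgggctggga
Ahrr: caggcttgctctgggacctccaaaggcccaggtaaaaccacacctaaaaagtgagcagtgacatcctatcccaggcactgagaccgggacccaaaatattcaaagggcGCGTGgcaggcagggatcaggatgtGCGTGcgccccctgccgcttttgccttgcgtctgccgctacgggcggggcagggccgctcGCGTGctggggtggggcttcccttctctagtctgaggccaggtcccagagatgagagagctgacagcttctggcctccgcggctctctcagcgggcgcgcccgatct
Tiparp: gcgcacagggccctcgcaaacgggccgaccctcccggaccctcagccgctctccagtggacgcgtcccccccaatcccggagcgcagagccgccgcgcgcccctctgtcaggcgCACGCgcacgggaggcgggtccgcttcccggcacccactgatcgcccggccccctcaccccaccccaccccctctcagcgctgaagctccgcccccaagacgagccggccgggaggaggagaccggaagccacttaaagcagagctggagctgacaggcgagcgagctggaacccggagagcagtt
The Cyp1a2 window lies at chr8:66978100-66978399 (minus strand), Cyp1b1 at chr6:21094315-21094614 (plus), Ahrr at chr1:30821969-30822268 (plus) and Tiparp at chr2:152063519-152063818 (plus). Ahrr held 3 cores, with first bases at -142, -117 and -57 from the gene's start, Cyp1b1 held 2, at -81 and -20, and Tiparp held 1, at -136. The Cyp1a2 and Ahr windows held 0, which says only that these letters are not in these windows. The core, on either strand, was found in 29.7% of the 33469 promoter windows of the same length in that table. The longer form TNGCGTG, which contains the core, was found in 4.89% of them, once each in Ahrr and Cyp1b1. No annotated gene starts between Cyp1a1 and Cyp1a2, which are neighbours on chromosome 8.

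Values are scores: the authors' deposited values are standardised for each probe set over the arrays, so 1 unit is 1 SD of that probe set over tissues and treatments. Levels of different probe sets and sizes of change of different genes are therefore not on 1 scale, and no fold change can be given. Array medians lay between -0.109 and 0.0624 in the larger table and between -0.774 and -0.729 in the AMG A livers, so liver levels are never set across the 2 compounds. In day 14 controls of the AMG B study 6 of 6 measured hepatocyte markers were highest in liver, 5 of 5 cortex and 5 of 5 medulla markers in adrenal gland, and 7 of 7 acinar markers in pancreas. Each marker was read by its probe set with the highest share of variance between tissues in these arrays, which favours such counts. Each comparison was tested with limma across all probe sets of its table, and "called" means an adjusted p under 0.05 over all of them. The p-values rest on the spread between animals within groups. Each probe set has 1 estimate of it, pooled over all groups of a fit and adjusted by those of other probe sets. The number of animals, 4 to a group, limits the precision. Overlap of groups is described without a test, and no share of all probe sets without overlap is set beside it. A lack of overlap is therefore no evidence beyond the call.

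In the larger table Cyp1a1 was near its lowest level in every tissue and group except the livers of rats given AMG B at 60 mg/kg, where it stood far above the controls from the first day. The enzyme it encodes is the classical readout of AHR activation. On day 1 the scores of animals 9, 10, 11 and 12 were 3.32, 3.18, 1.83 and 1.37 at 60 mg/kg, against -0.31, -0.31, -0.30 and -0.30 in controls. On day 4 they were 3.22, 2.95, 2.49 and 2.34 at 60 mg/kg, against -0.29, -0.30, -0.31 and -0.29 in controls. On day 14 they were 3.71, 4.57, 4.70 and 4.70 at 60 mg/kg, against -0.32, -0.29, -0.27 and -0.31 in controls. No treated liver overlapped a control liver on any day, and on day 1 the treated animals fell into a higher and a lower pair.

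The differences were 2.73 on day 1 (95% interval 2.17 to 3.29), 3.05 on day 4 (2.49 to 3.61) and 4.72 on day 14 (4.16 to 5.28), with adjusted p of 1.09e-06, 1.72e-07 and 2.89e-12. The day 14 means were 4.42 ± 0.482 at 60 mg/kg and -0.297 ± 0.0184 in controls (SD, n = 4 each). The intervals and p-values here rest on a spread pooled with groups as tight as these controls. For the 60 mg/kg livers they can be too narrow and too small. In each probe set's own SD units, Cyp1a1 had the highest day 14 difference of all 31042 probe sets. Those units differ between probe sets, so this rank does not order genes by size of response. The other 96 arrays of the larger table ran from -0.33 to -0.22 with a median of -0.29, so these 12 livers lay above all of them. The day 14 difference exceeded that of day 1 by 1.99 (1.19 to 2.78, adjusted p 0.0241) and that of day 4 by 1.67 (0.88 to 2.46, adjusted p 0.0590). Fitted on the 8 arrays of the comparison alone, the day 1 difference was not called (adjusted p 0.172), and on normal scores of ranks none of the 3 was (adjusted p 0.581, 0.435 and 0.0713). The day 14 to day 1 contrast was not called with 1 of animals 3, 11, 26 or 28 left out (adjusted p up to 0.0582), nor after quantile normalization (difference 1.37, adjusted p 0.233) or on normal scores of ranks (0.53, adjusted p 0.879). Over all probe sets 0.193% were called in that contrast, 0.242% between days 14 and 4, and 0.00322% between days 4 and 1, where no member was called.

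Cyp1a1 was not called at 3 mg/kg of AMG B on any day: its scores there were between -0.32 and -0.26, against -0.32 to -0.27 in controls. The groups overlapped on days 4 and 14, while on day 1 all 4 dosed livers lay just above the controls. The pooled spread of Cyp1a1 includes the 60 mg/kg livers: even controls of day 4 minus day 1 had an interval of -0.55 to 0.57. That fit could therefore not call so small a difference, and fitted on the compared groups alone it was not called either. The gap between 60 and 3 mg/kg was 2.72, 3.05 and 4.71 on days 1, 4 and 14, with adjusted p of 2.4e-06, 1.69e-07 and 2.95e-12. The same pooled spread is narrower than that of the 60 mg/kg livers of day 1, so these p-values can be too small. In the AMG A livers Cyp1a1 was not called at either dose. On day 14 it read -0.23, -0.21, -0.14 and -0.23 at 30 mg/kg, against -0.29, -0.28, -0.29 and -0.27 in controls. These groups did not overlap, but the difference of 0.078 was not called (95% interval 0.0009 to 0.155, p 0.0475, adjusted p 0.392). The high doses of the compounds differ, so the values at 60 mg/kg of AMG B and 30 mg/kg of AMG A are set side by side only.

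**Figure D1:**
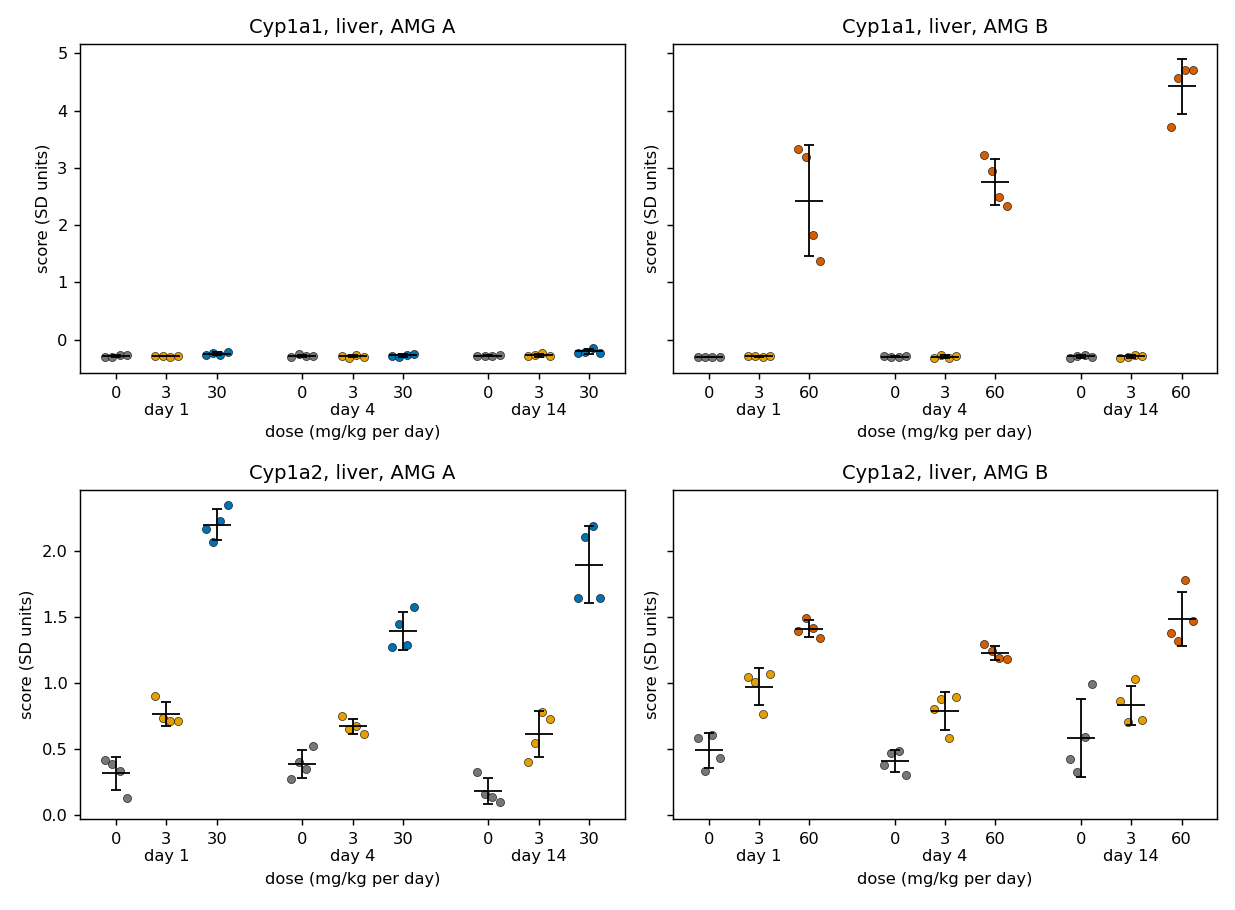
Scores of Cyp1a1 (top) and Cyp1a2 (bottom) in liver, in SD units of the probe set, by daily dose and day, for AMG A (left) and AMG B (right). Each point is 1 animal, the bar is the mean and the whisker the SD of 4. Cyp1a1 leaves its floor near -0.3 in the 12 livers given AMG B at 60 mg/kg, between 1.37 and 4.70, while Cyp1a2 is raised at the high dose of both compounds, with the mean at 3 mg/kg between those of controls and high dose.

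Cyp1a2 was raised at the high dose of both compounds on all 3 days. CYP1A2 is the constitutive hepatic member of the family and oxidises caffeine and aromatic amines. With AMG A on day 1 the scores were 2.16, 2.07, 2.23 and 2.35 at 30 mg/kg, against 0.42, 0.39, 0.33 and 0.13 in controls. On day 4 they were 1.27, 1.45, 1.29 and 1.58 at 30 mg/kg, against 0.28, 0.40, 0.35 and 0.53 in controls. On day 14 they were 1.65, 2.11, 2.19 and 1.65 at 30 mg/kg, against 0.33, 0.16, 0.14 and 0.10 in controls. Every treated liver lay above every control of its day.

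The differences with AMG A were 1.88 (1.66 to 2.10), 1.01 (0.79 to 1.23) and 1.71 (1.49 to 1.93) on days 1, 4 and 14, with adjusted p of 1.19e-12, 4.9e-06 and 1.39e-11. The day 14 means were 1.90 ± 0.291 at 30 mg/kg and 0.184 ± 0.100 in controls (SD, n = 4 each). On normal scores of ranks none of the 3 was called (adjusted p 0.27, 0.511 and 0.268). The day 4 difference was 0.88 below that of day 1 (interval -1.19 to -0.56, adjusted p 0.0505), and the day 14 difference 0.71 above that of day 4 (0.40 to 1.02, adjusted p 0.662). Neither was called, and no probe set was called in any of the 3 contrasts between days in that liver (0% of 15866, with 753 to 884 at an unadjusted p under 0.05). The dip on day 4 is thus a pattern of the means that the test over all probe sets did not call.

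With AMG B at 60 mg/kg Cyp1a2 read 1.39, 1.50, 1.42 and 1.34 on day 1, against 0.59, 0.33, 0.61 and 0.44 in controls. On day 4 it read 1.30, 1.24, 1.19 and 1.19 at 60 mg/kg, against 0.38, 0.47, 0.49 and 0.31 in controls. On day 14 it read 1.38, 1.32, 1.78 and 1.47 at 60 mg/kg, against 0.43, 0.33, 0.59 and 1.00 in controls. The groups did not overlap on any day, although control animal 28 came near the treated range on day 14. The differences were 0.92 (0.66 to 1.18), 0.82 (0.56 to 1.08) and 0.90 (0.64 to 1.16), with adjusted p of 5.68e-04, 9.28e-04 and 6.44e-05. When only the 8 arrays of each comparison were fitted, these 3 differences were not called (adjusted p 0.152, 0.0596 and 0.142), nor were they on normal scores of ranks (0.581, 0.242 and 0.0628).

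The 3 mg/kg dose, shared by both compounds, gave mean Cyp1a2 scores between those of controls and high dose on every day. With AMG A the day 1 scores were 0.90, 0.74, 0.71 and 0.72 at 3 mg/kg, against the control values above, and the groups did not overlap on any of the 3 days. The differences were 0.45, 0.28 and 0.43 on days 1, 4 and 14, and none was called (adjusted p 0.0934, 0.553 and 0.199). With AMG B the day 1 scores were 1.05, 1.01, 0.77 and 1.07 at 3 mg/kg, and the groups overlapped on day 14 but not on days 1 and 4. Those differences were 0.48, 0.38 and 0.25, again none called (adjusted p 0.637, 0.651 and 0.788).

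Averaged over the 3 days, a contrast chosen after the daily values were seen, Cyp1a2 was called at 3 mg/kg of AMG A, with a difference of 0.39 (0.26 to 0.52, adjusted p 0.00219). That call was lost after quantile normalization (0.40, adjusted p 0.0733) and on normal scores of ranks (adjusted p 0.164). At 3 mg/kg of AMG B the averaged difference was 0.37 (0.22 to 0.52, adjusted p 0.0319), and it was lost in 15 of 24 fits that left out 1 animal (adjusted p up to 0.0816) and on normal scores of ranks (adjusted p 0.747). The 30 mg/kg dose of AMG A stood above 3 mg/kg by 1.44, 0.72 and 1.28 on days 1, 4 and 14 (adjusted p 1.25e-09, 0.00358 and 1.97e-08). The 60 mg/kg dose of AMG B stood above 3 mg/kg by 0.44, 0.44 and 0.66 (adjusted p 0.441, 0.177 and 0.00353), so that step was called on day 14 alone.

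Counted over the family, 2 of 8 member probe sets (Cyp1a1 and Cyp1a2) were called at 60 mg/kg of AMG B on each day, both higher. Over all probe sets the share called in those comparisons was 0.0548% on day 1, 0.68% on day 4 and 5.66% on day 14. In each probe set's own SD units, the median difference of the 8 was 0.11, 0.58 and 0.55, beside 0.0024, 0.0055 and 0.012 over all probe sets. With AMG A at 30 mg/kg 1 of 6 was called on each day (Cyp1a2), where 0.366%, 0.0693% and 0.353% of all probe sets were called, and the median of the 6 was 0.020, -0.0021 and -0.0078, beside 0.0023, 0.0042 and 0.0021 over all.

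At 3 mg/kg no member was called on any single day by limma. At an unadjusted p under 0.05 there were 2, 1 and 1 of 6 with AMG A on days 1, 4 and 14, and 1, 1 and 0 of 8 with AMG B. At that same unadjusted level stood 1592, 1141 and 1234 of all 15866 probe sets with AMG A. With AMG B 1418, 1787 and 2018 of 31042 did. The shares of all probe sets called, at an adjusted p under 0.05, were 0.0378%, 0.0126% and 0.0063% with AMG A, and 0.00966%, 0.0226% and 0% with AMG B. High against low dose called 1 of 6 members with AMG A on each day (shares 0.0189%, 0.0063% and 0.063%), and 1, 1 and 2 of 8 with AMG B (0.0129%, 0.193% and 3.79%). In the averages over days, 1 of 6 members was called at 3 mg/kg (1.29% of all) and 1 of 6 at 30 mg/kg of AMG A (6.5%), and with AMG B 1 of 8 at 3 mg/kg (0.087%) and 3 of 8 at 60 mg/kg (5.84%).

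**Figure D2:**
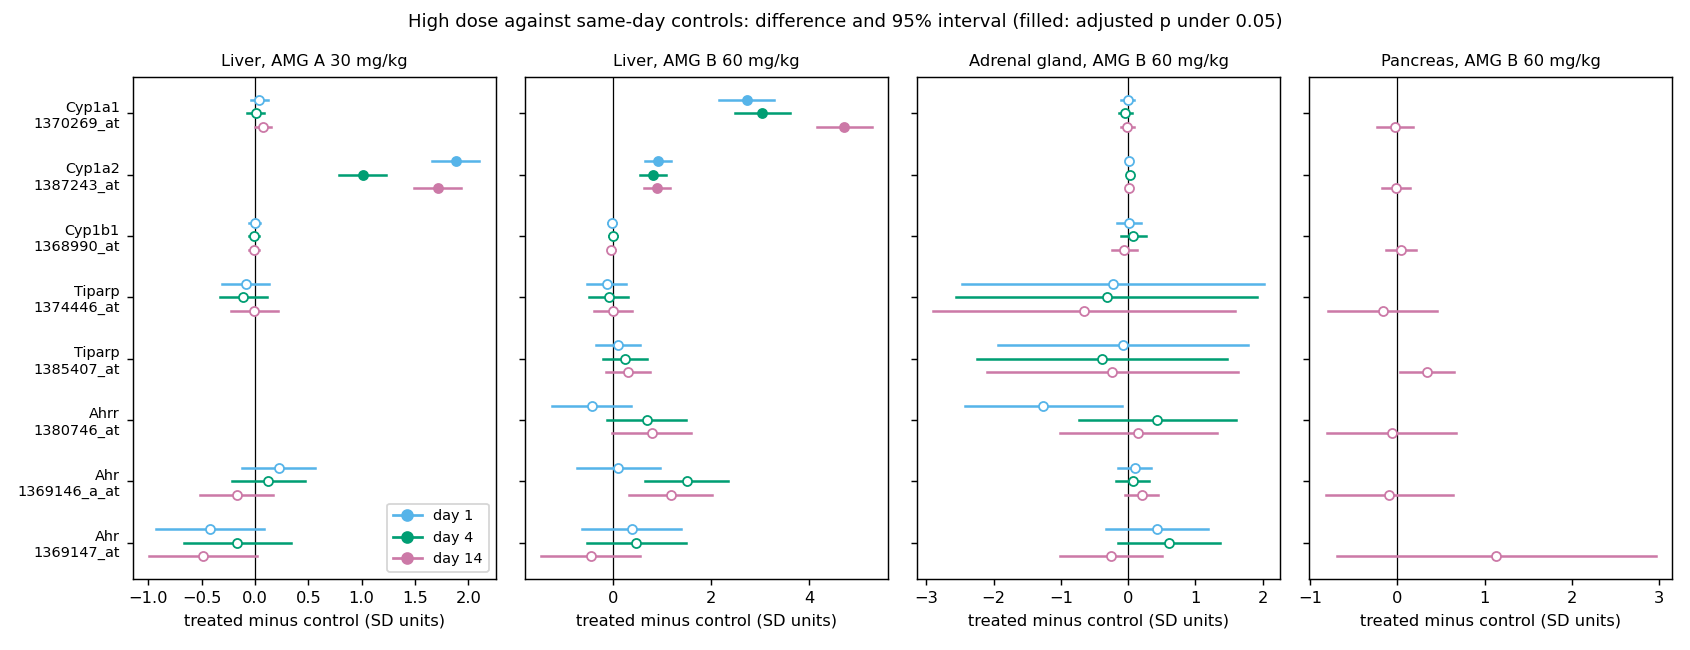
Difference between the high dose and same-day controls for each member probe set, in SD units, with its 95% interval (bars), by tissue and day; filled points have an adjusted p under 0.05. The 9 filled points are Cyp1a1 in AMG B liver and Cyp1a2 in both livers, and the Tiparp intervals in adrenal gland are wide. Ahrr and Tiparp 1385407_at have no points in AMG A liver because the smaller array lacks them, and the pancreas was read on day 14 only.

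The receptor itself was read by 2 probe sets that did not move together. Ahr 1369146_a_at rose in the average over days at 60 mg/kg of AMG B in liver, by 0.93 (0.45 to 1.42, adjusted p 0.0176). By day, its scores on day 4 were 1.30, 2.77, 1.56 and 2.94 at 60 mg/kg, against 0.91, 0.99, 0.49 and 0.17 in controls. On day 14 they were 1.34, 1.32, 1.58 and 2.64 at 60 mg/kg, against 0.24, 0.47, 1.15 and 0.30 in controls. Neither day's groups overlapped, and the differences of 1.51 and 1.18 were not called (adjusted p 0.0815 and 0.0939). On day 1 animals 9 and 10 read 2.26 and 1.93 and animals 11 and 12 read 0.21 and 0.88 at 60 mg/kg, against 0.70 to 1.82 in controls. Animals 9 and 10 were also the higher pair for Cyp1a1 on that day. On day 4 the order was the other way. Animal 21 was highest for Cyp1a1 (3.22) and lowest for this probe set (1.30), and animal 24 lowest for Cyp1a1 (2.34) and highest here (2.94).

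The other probe set, Ahr 1369147_at, differed by 0.13 in the same average (-0.45 to 0.72, adjusted p 0.848). On day 14 it read -2.01, -1.96, 1.08 and -0.27 at 60 mg/kg, against -1.25, 0.21, -0.43 and 0.11 in controls, a treated range that enclosed the controls. Over the 36 AMG B livers the Pearson correlation of the 2 probe sets was 0.064, and over the 36 AMG A livers 0.098. In AMG A livers the averaged difference at 30 mg/kg was 0.059 for 1369146_a_at (adjusted p 0.777) and -0.36 for 1369147_at (adjusted p 0.128). The call for Ahr in AMG B liver rests on 1 of its 2 probe sets, and it was not called on normal scores of ranks (adjusted p 0.0593).

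**Figure D3:**
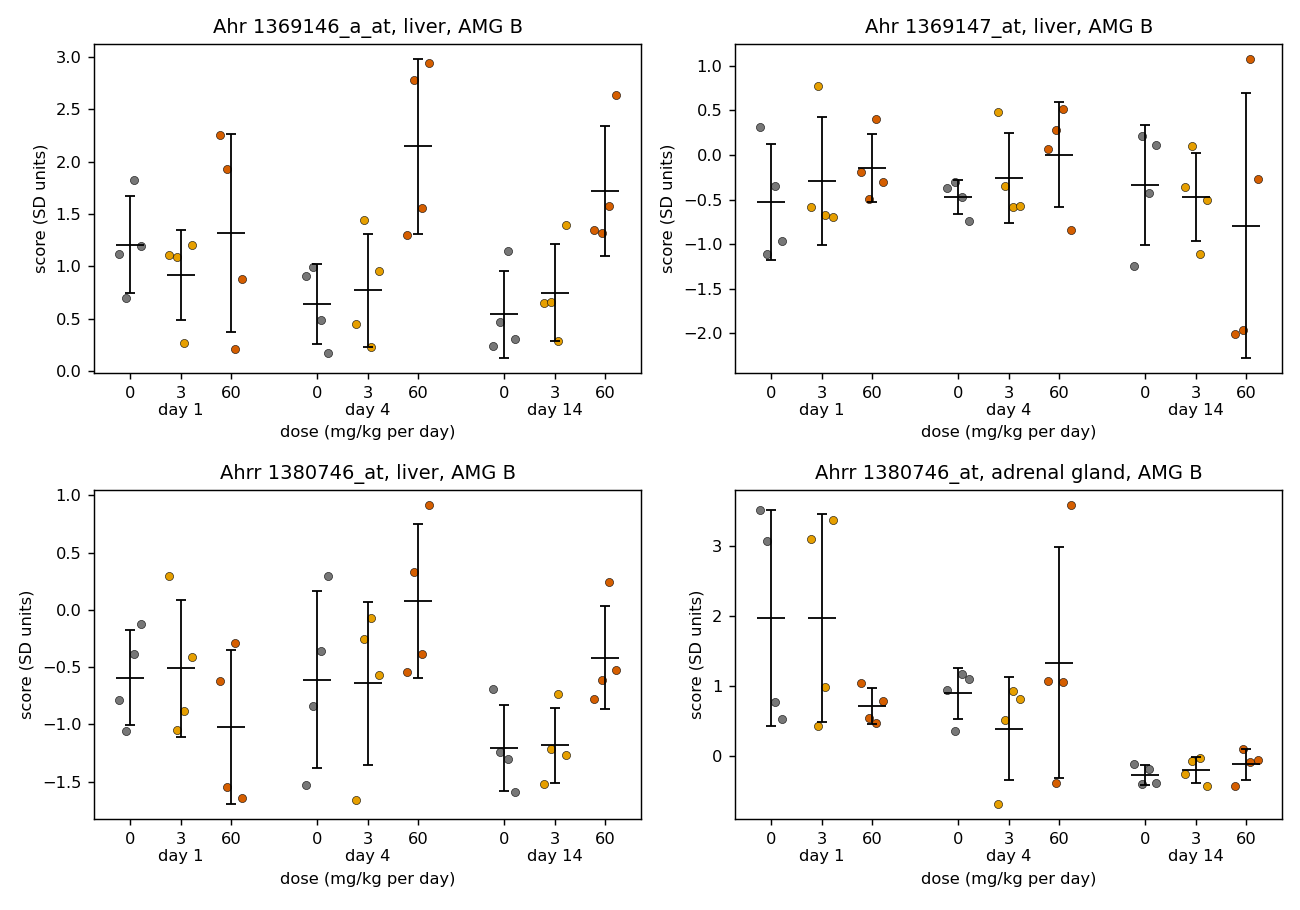
Scores of both Ahr probe sets and of Ahrr in AMG B liver, and of Ahrr in the adrenal gland, in SD units, by daily dose and day; each point is 1 animal, the bar is the mean and the whisker the SD of 4. Ahr 1369146_a_at at 60 mg/kg lies above controls on days 4 and 14 while 1369147_at spreads from -2.01 to 1.08 on day 14, and adrenal Ahrr is above 3 in 2 control animals and 2 animals at 3 mg/kg on day 1 and in 1 animal at 60 mg/kg on day 4.

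Ahrr, the repressor, did not pass the test in liver. On day 14 it read -0.78, -0.61, 0.24 and -0.53 at 60 mg/kg of AMG B, against -0.69, -1.24, -1.31 and -1.59 in controls. Of the treated animals 3 lay above every control, and the difference was 0.79 (-0.02 to 1.60, p 0.0555, adjusted p 0.274). On days 1 and 4 the differences were -0.43 and 0.69 (adjusted p 0.848 and 0.510), with overlapping groups. The levels were low in this tissue, from -1.66 to 0.91 over 36 livers.

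Tiparp and Cyp1b1 gave no called dose difference in liver either. Tiparp 1374446_at differed by -0.13, -0.089 and 0.0011 on days 1, 4 and 14 at 60 mg/kg of AMG B, and 1385407_at by 0.10, 0.24 and 0.31, with adjusted p of 0.475 or more in every case. Cyp1b1 differed by at most 0.031 in size at 60 mg/kg and 0.041 at 3 mg/kg, and its 36 AMG B livers all read between -0.71 and -0.62. On day 1 all 4 livers at 3 mg/kg (-0.699 to -0.671) lay below the controls (-0.655 to -0.635), a difference that was not called. The 60 mg/kg interval of Cyp1b1 on day 14, -0.11 to 0.047, is narrow, as were the scores within liver. Liver sat at the low end of this probe set's scale over tissues, so small differences there do not show that nothing changed.

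Other genes of the pathway were also read in liver. At 60 mg/kg of AMG B 0.0548%, 0.68% and 5.66% of all probe sets were called on days 1, 4 and 14. At an unadjusted p under 0.05 there were 2482, 3749 and 6008 of 31042. At 30 mg/kg of AMG A 0.366%, 0.0693% and 0.353% were called on those days. There 1863, 1616 and 1996 of 15866 had an unadjusted p under 0.05. Of 7 measured genes of the wider AHR battery, mostly enzymes of drug and oxidant metabolism with the transcription factor Nfe2l2 beside them, 2 rose at 60 mg/kg of AMG B on day 14 and none fell. They were Nqo1, a quinone reductase (difference 2.73, adjusted p 2.21e-04), and Gsta3, a glutathione transferase (3.21, adjusted p 0.00118). On days 1 and 4 none of the 7 was called by limma, with 2 at an unadjusted p under 0.05 on each day. At the shares called on those days, 0 of 7 does not set the list apart. With AMG A at 30 mg/kg none was called, while 0, 1 and 0 on days 1, 4 and 14 had an unadjusted p under 0.05. Their median difference at 60 mg/kg was 0.18, 0.22 and 0.20 on days 1, 4 and 14.

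Of 9 measured AHR partners and chaperones, 1 was called at 60 mg/kg of AMG B on day 14, Ncoa1, a nuclear receptor coactivator, which fell by 0.30 (adjusted p 0.0327). None of the 9 was called on days 1 and 4, with 0 and 1 at an unadjusted p under 0.05. With AMG A at 30 mg/kg none was called by day, with 1, 4 and 0 at that level on days 1, 4 and 14, and in the average over days 1 was, Bmal1, which fell by 0.44 (adjusted p 0.0212). In that average 6.5% of all probe sets were called. Of 9 measured P450 genes governed by other receptors, 1 rose, Cyp3a9 at 60 mg/kg of AMG B on day 14 (1.59, adjusted p 0.00449), and none was called at 30 mg/kg of AMG A, with 1 at an unadjusted p under 0.05 on each day. The medians of the partner and P450 lists at 60 mg/kg on day 14 were -0.075 and -0.12, beside 0.012 over all probe sets. In that comparison the share of all probe sets called was 5.66%, so 1 call of 9 does not set either list apart.

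Markers of other liver cells moved in the same 60 mg/kg livers. At day 14, 4 of 6 macrophage markers, 3 of 6 endothelial markers, 2 of 7 stellate and fibroblast markers and 2 of 4 erythroid markers were lower and none higher. In that comparison 5.66% of all probe sets were called. The mean macrophage score ran from -0.90 to 1.26 at 60 mg/kg, against 0.65 to 1.63 in controls, and the mean endothelial score from -0.85 to -0.59, against -0.20 to 0.59 in controls. The mean erythroid score ran from -0.90 to -0.16 at 60 mg/kg, against 0.44 to 0.99 in controls. On day 1, when Cyp1a1 and Cyp1a2 were already called, 1 erythroid marker (Hbb) was the single marker called in these 4 lists, although 4 of 6 macrophage markers had an unadjusted p under 0.05. Over all probe sets 2482 of 31042 had such a p on that day, and 0.0548% were called. In bulk tissue fewer cells of a type and less RNA per cell cannot be told apart, and the part of these shifts in the members' differences was not tested. In AMG A livers no marker of these 4 lists was called at 30 mg/kg, while 1, 1 and 4 on days 1, 4 and 14 had an unadjusted p under 0.05. Over all probe sets 1863, 1616 and 1996 of 15866 did.

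The nearest pattern to both Cyp1a1 and Cyp1a2 over the AMG B livers was that of Ifitm10. This gene, of the interferon-induced transmembrane protein family, had a Pearson correlation of 0.923 with Cyp1a1 and 0.909 with Cyp1a2 over the 36 AMG B livers. Over the 36 AMG A livers it correlated at 0.907 with Cyp1a2 and at 0.630 with Cyp1a1, whose values there hardly vary. Next to Cyp1a1 in AMG B liver came Sf3b4 (0.869), a splicing factor subunit, Cyb5a (0.858), the cytochrome b5 that passes electrons to P450 enzymes, Eif3c (0.836) and Nqo1 (0.832). Next to Cyp1a2 there came Sf3b4 (0.858), Cyp1a1 (0.819), Cyb5a (0.797) and Zng1a (0.771).

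In AMG A liver the next nearest to Cyp1a2 were Acap1 (0.708), Fli1 (0.695), Pde7a (0.692) and Psmc5 (0.691), well below Ifitm10. Those of Cyp1a1 there were Per3 (0.673), Cd244l1 (0.669), Cyp1a2 (0.649) and Gpn2 (0.637). These are descriptions over arrays that share dose groups. The 3 nearest to the other members in AMG B liver were lower, from 0.626 to 0.727. They were Sppl2a, Tgfbr1 and Klhl3 for Cyp1b1, Clca2, Tesmin and Mta3 for Ahrr, Rtp3, Birc2 and Ell for Tiparp 1374446_at, and Akr1c14, Fkbp2 and Glrx for Ahr 1369146_a_at. For Tiparp 1385407_at they were Ube2g1, Yme1l1 and Zbtb20, and for Ahr 1369147_at Camk4, Morn4 and Haus7. None of those lists was shared between the 2 probe sets of a gene.

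Outside liver no member was called for either compound, at any dose or day: 0 of 96 tests by limma in adrenal gland and pancreas, with 3 at an unadjusted p under 0.05. Over all 31042 probe sets the number at that level ran from 1078 to 8050 by comparison. In adrenal gland the share of all probe sets called at 60 mg/kg of AMG B was 0.335%, 0.889% and 5.96% on days 1, 4 and 14, and at 3 mg/kg 0.00644%, 0.0354% and 0.00322%. With AMG A on day 14 it was 0% at both doses, with 1078 and 1799 probe sets at an unadjusted p under 0.05 at 3 and 30 mg/kg. In pancreas it was 0.00322% at either dose of AMG A, and with AMG B 0.0226% at 3 mg/kg and 9.88% at 60 mg/kg. The share for 60 mg/kg in pancreas is the highest share of any dose comparison, and no member was among its 3067 probe sets. With 8 member probe sets, 0 calls does not set the members apart at that share.

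Other genes of the pathway were called in that pancreas. At 60 mg/kg of AMG B 3 of the 7 battery genes rose and none fell: Nfe2l2, the transcription factor NRF2 (difference 1.70, adjusted p 9.6e-04), Gsta1, a glutathione transferase (1.05, adjusted p 6.23e-04), and Nqo1 (0.50, adjusted p 0.0408). The median of the 7 was 0.50, beside -0.017 over all probe sets, of which 9.88% were called. Of the 9 partners and chaperones Ptges3 rose by 1.35 (adjusted p 0.0300) and Ncoa1 fell by 1.17 (adjusted p 0.0334). In the same arrays 6 of 7 acinar markers fell, with a mean acinar score of 1.58 to 1.70 at 60 mg/kg, against 2.26 to 3.09 in controls; the part of that shift in these differences was not tested. In adrenal gland the single call in the 2 lists was Bmal1, a circadian factor, higher at 60 mg/kg on day 14 by 1.26 (adjusted p 0.0495). In that adrenal comparison 5.96% of all probe sets were called.

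Cyp1a1 and Cyp1a2 sat at the bottom of their range in both tissues. Over the 72 adrenal and pancreas arrays Cyp1a1 lay between -0.33 and -0.22 and Cyp1a2 between -0.96 and -0.88, whatever the compound, dose or day. The 60 mg/kg difference in liver exceeded that in adrenal gland for Cyp1a1 by 2.74 on day 1 (adjusted p 2.25e-09), 3.09 on day 4 (2.43e-11) and 4.73 on day 14 (9.15e-15), and that in pancreas by 4.74 on day 14 (8.64e-15). These p-values rest on a spread pooled with tight adrenal gland or pancreas groups, so they can be too small for the 60 mg/kg livers. For Cyp1a2 liver exceeded adrenal gland by 0.91 on day 1 (adjusted p 1.15e-04), 0.80 on day 4 (0.00129) and 0.90 on day 14 (0.0166), and pancreas by 0.92 on day 14 (0.00301). These 2 genes were the members called in each of the 4 contrasts, where the share of all probe sets was 0.0226%, 0.261% and 1.04% against adrenal gland on days 1, 4 and 14, and 9.31% against pancreas. Between adrenal gland and pancreas no member's difference was called by limma, and none had an unadjusted p under 0.05, with 9.55% of all probe sets called. The Cyp1a2 contrast with adrenal gland on day 14 was not called with the animal as a block (adjusted p 0.0543), nor with 1 of animals 25, 26, 27, 35 or 36 left out (adjusted p up to 0.103). On normal scores of ranks the Cyp1a1 contrasts with adrenal gland on day 1 (2.31, adjusted p 0.432) and day 14 (2.42, adjusted p 0.228) were not called, nor were any of the 4 Cyp1a2 contrasts (adjusted p 0.271 to 0.961).

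**Figure D4:**
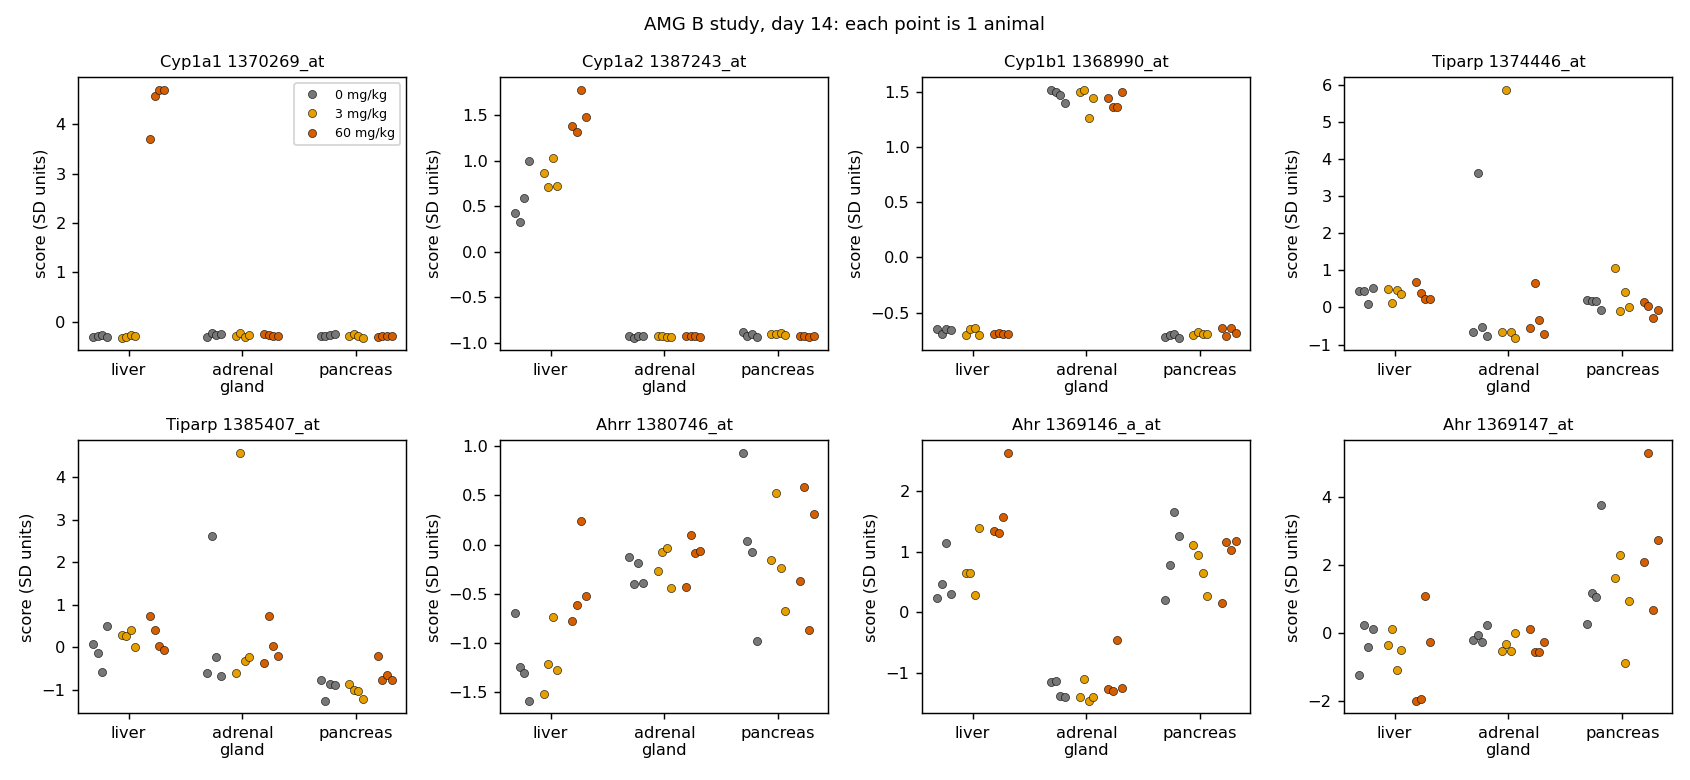
Scores of each member probe set in liver, adrenal gland and pancreas on day 14 of the AMG B study, in SD units; each point is 1 animal and colours give the daily dose. Cyp1a1 and Cyp1a2 change with dose in liver alone, Cyp1b1 stands above 1 in all 12 adrenal glands and below -0.6 in the other tissues, and Ahr 1369146_a_at is lowest in adrenal gland.

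Liver and adrenal gland each had a family 1 gene that was higher there than in the other tissues. Cyp1b1, which metabolises oestrogens and aromatic hydrocarbons, was the adrenal member: its score over 48 adrenal glands ran from 1.05 to 2.02, against -0.73 to -0.64 over 24 pancreas arrays and -0.71 to -0.62 over 36 AMG B livers. In day 14 controls of the AMG B study liver was below adrenal gland by 2.13 (adjusted p 1.73e-14), and adrenal gland above pancreas by 2.18 (adjusted p 8.61e-15). Liver and pancreas differed by 0.052 (interval -0.20 to 0.30, adjusted p 0.753). Cyp1a2 was the liver member, above adrenal gland by 1.52 (adjusted p 1.71e-10) and above pancreas by 1.50 (1.69e-10). Adrenal gland and pancreas differed in Cyp1a2 by -0.021 (-0.30 to 0.26, adjusted p 0.913), and Cyp1a1 was not called between any 2 tissues (adjusted p 0.897 or more).

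Probe sets of the receptor and its repressor also differed between tissues, as a large share of all probe sets did. Ahr 1369146_a_at was higher in liver than in adrenal gland by 1.81 (adjusted p 2.48e-05) and lower in adrenal gland than in pancreas by 2.25 (5.96e-07), while liver and pancreas differed by -0.44 (adjusted p 0.257). Ahr 1369147_at was lower in liver than in pancreas by 1.89 (adjusted p 0.0336), a call lost without control animal 25, 27 or 28 (adjusted p up to 0.192), and it did not differ between liver and adrenal gland beyond its spread (-0.26, -1.79 to 1.28). Ahrr was lower in liver than in pancreas by 1.19 (adjusted p 0.00238) and lower in liver than in adrenal gland by 0.93 (0.0184), the last not called without animal 26, 27 or 28 (adjusted p up to 0.0837). Over all probe sets 43.6% were called between liver and adrenal gland, 54.2% between liver and pancreas and 57.6% between adrenal gland and pancreas. Of the 8 member probe sets 4, 3 and 2 were called in these contrasts, so the number of calls does not set the members apart.

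Tiparp stood far above its usual level in a few adrenal glands. Its probe sets had medians of -0.56 and -0.33 over 48 adrenal glands, yet 7 animals scored above 1 in both, up to 5.87 for 1374446_at and 4.98 for 1385407_at. In the AMG A study they were 2 of 4 animals at 3 mg/kg, 0 of 4 at 30 mg/kg and 1 of 4 controls. In the AMG B study they were 2 of 12 at 3 mg/kg, 0 of 12 at 60 mg/kg and 2 of 12 controls, all on days 4 and 14. Counting animals above 1 in either probe set, 60 mg/kg had 1 of 12, animal 21 on day 4 (1.13 for 1374446_at and 0.76 for 1385407_at). The 2 probe sets correlated at 0.977 over the 48 arrays, against 0.665 over 36 AMG B livers and 0.210 over 24 pancreas arrays. The genes most like Tiparp in adrenal gland, a search added after these values were seen, were Nr4a2, an immediate early nuclear receptor (0.965 with 1374446_at), Klf4, a zinc finger factor (0.951), and Csrnp3 (0.941).

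**Figure D5:**
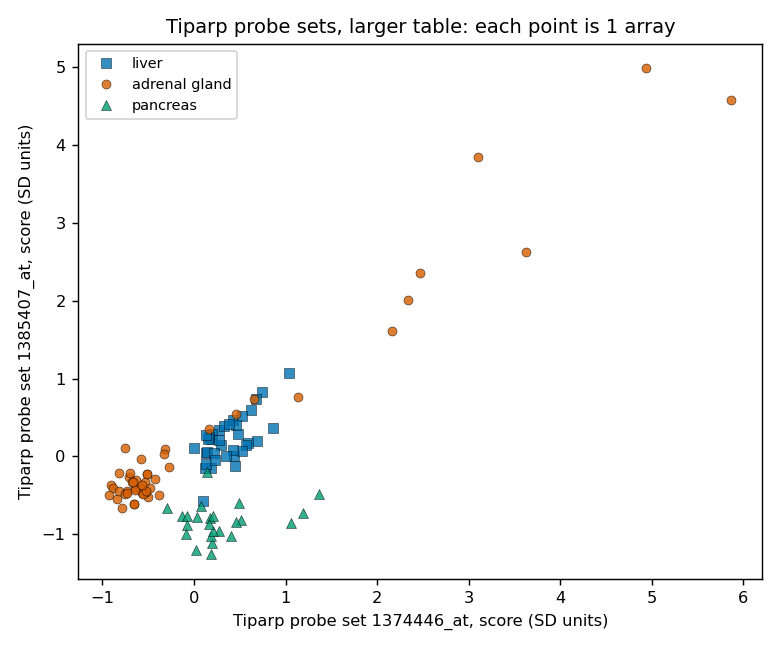
Scores of the 2 Tiparp probe sets, in SD units, over the 108 arrays of the larger table, each point 1 array and each colour a tissue. The 7 adrenal arrays above 1 in both run along a line up to 5.87 and 4.98, apart from the other adrenal arrays, and no liver or pancreas array exceeds 1.37 in either.

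Adrenal Ahrr differed between days in controls and gave no called dose difference. On day 1 it read 1.04, 0.54, 0.47 and 0.78 at 60 mg/kg, against 3.52, 3.08, 0.76 and 0.53 in controls (difference -1.26, p 0.0346, adjusted p 0.492). At 3 mg/kg it read 3.10, 0.43, 0.98 and 3.38 on that day, so animals above 3 occurred with and without compound. On day 14 all 12 adrenal glands of the AMG B study lay between -0.44 and 0.10, and controls of day 14 were below those of day 1 by 2.25 (adjusted p 0.00371). In that contrast 1 of 8 member probe sets was called, beside 25.3% of all probe sets. Of its 4 day 1 controls 2 read above 3, and it was not refitted with 1 animal left out.

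The 2 other tests at an unadjusted p under 0.05 were single probe sets. Ahr 1369147_at in adrenal gland on day 4 read 1.74, 1.86, 2.18 and 1.59 at 3 mg/kg of AMG B, against 0.07, -0.23, 0.15 and 1.81 in controls. The difference of 1.39 was not called (adjusted p 0.237), and without control animal 16 it was 1.85 and called (adjusted p 0.0321). Tiparp 1385407_at in pancreas read -0.20, -0.78, -0.66 and -0.77 at 60 mg/kg, against -0.76, -1.26, -0.86 and -0.88 in controls, overlapping groups with a difference of 0.34 (adjusted p 0.154).

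At 3 mg/kg, the dose both compounds share, the differences from controls on day 14 were set against each other in adrenal gland and pancreas. Of 16 member tests, 8 in each tissue, none was called by limma and none had an unadjusted p under 0.05, where 0.00644% of all probe sets were called in adrenal gland and 0% in pancreas. For Cyp1a1 the AMG A minus AMG B difference was 0.0094 in adrenal gland (-0.13 to 0.15) and 0.013 in pancreas (-0.28 to 0.31). For Cyp1a2 it was -0.0052 in adrenal gland (-0.061 to 0.051) and -0.012 in pancreas (-0.23 to 0.21). For Tiparp 1374446_at the adrenal interval ran from -2.67 to 3.66, too wide to show a difference of several SD.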

How the data were processed

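Scores come from Affymetrix arrays of liver, adrenal gland and pancreas, with 5 ug of total RNA labelled per array, per the labels' protocols. The authors deposited score values, 1 per probe set and array, in 2 tables; from the values, each probe set has a mean near 0 and an SD near 1 over the arrays. Of scanner software, summary method and scaling, each is not given in the sources used here. Probe sets were named from the platform annotation; 20826 of 31042 and 12783 of 15866 had 1 symbol.

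Samples were grouped by tissue, compound, dose and day from the labels. Differences were fitted with limma 3.58.1 in R 4.3.3 (lmFit, eBayes with a trend) over all probe sets of a table, with 1 fit each for AMG A liver, AMG B liver, adrenal gland and pancreas, and 1 for each set of tissue contrasts, with two-sided Benjamini-Hochberg adjusted p at a threshold of 0.05. Tables were never tested across each other. The scripts were tested on simulated data. The members and lists were chosen with earlier results of these data known. The genes named as alike are the nearest by Pearson correlation, 5 for Cyp1a1 and Cyp1a2 and 3 for the other members. Each gene of a list was read by 1 probe set, the one with the highest share of its variance between tissues.

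Tissues of 1 animal share its number. The correlation of deviations from group means was 0.0495 (median) for the same animal in liver and adrenal gland on day 14 against -0.0165 for different animals, so the block was fitted as an alternative. Alternatives were quantile normalization, ranks, a filter, other treatments of probe sets, fewer groups, no trend and each animal left out; results uncalled in both fits count as unchanged. Figures were drawn with Python 3.11.15 and matplotlib 3.10.9.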

Additional observations from a re-analysis of the deposited data

Results flagged for a closer look

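Of 270 groups of 4 animals tested over the 8 probe sets, 28 held an animal far from the other 3, where chance flags about 1 in 20. For Ahr 1369146_a_at these were animal 35 in adrenal gland AMG B 60 mg/kg day 14 (-0.461), animal 3015 in liver AMG A 3 mg/kg day 1 (0.747) and animal 7 in liver AMG B 3 mg/kg day 1 (0.271). Also apart for Ahr 1369146_a_at was animal 33 in pancreas AMG B 60 mg/kg day 14 (0.163). For Ahr 1369147_at it was animal 6 in liver AMG B 3 mg/kg day 1 (0.779). For Ahrr 1380746_at it was animal 3023 in pancreas AMG A 3 mg/kg day 14 (0.057). For Cyp1a1 1370269_at these were animal 3012 in liver AMG A 0 mg/kg day 14 (-0.275) and animal 33 in liver AMG B 60 mg/kg day 14 (3.705). For Cyp1a2 1387243_at these were animal 15 in adrenal gland AMG B 0 mg/kg day 4 (-0.960), animal 26 in adrenal gland AMG B 0 mg/kg day 14 (-0.943) and animal 3013 in liver AMG A 3 mg/kg day 1 (0.903). Also apart for Cyp1a2 1387243_at was animal 3010 in pancreas AMG A 0 mg/kg day 14 (-0.895). For Cyp1b1 1368990_at these were animal 3028 in liver AMG A 30 mg/kg day 1 (-0.711), animal 3005 in liver AMG A 0 mg/kg day 4 (-0.680) and animal 3036 in liver AMG A 30 mg/kg day 14 (-0.702). Also apart for Cyp1b1 1368990_at was animal 4 in liver AMG B 0 mg/kg day 1 (-0.635). For Tiparp 1374446_at these were animal 14 in adrenal gland AMG B 0 mg/kg day 4 (2.473), animal 17 in adrenal gland AMG B 3 mg/kg day 4 (2.158) and animal 26 in adrenal gland AMG B 0 mg/kg day 14 (3.629). Also apart for Tiparp 1374446_at were animal 30 in adrenal gland AMG B 3 mg/kg day 14 (5.870), animal 3009 in pancreas AMG A 0 mg/kg day 14 (1.188) and animal 28 in pancreas AMG B 0 mg/kg day 14 (-0.074). For Tiparp 1385407_at these were animal 14 in adrenal gland AMG B 0 mg/kg day 4 (2.355), animal 17 in adrenal gland AMG B 3 mg/kg day 4 (1.604) and animal 21 in adrenal gland AMG B 60 mg/kg day 4 (0.763). Also apart for Tiparp 1385407_at were animal 26 in adrenal gland AMG B 0 mg/kg day 14 (2.620), animal 30 in adrenal gland AMG B 3 mg/kg day 14 (4.576) and animal 23 in liver AMG B 60 mg/kg day 4 (0.825).

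The 60 mg/kg difference of AMG B differed between tissues or days for 2 genes, each by a test of the difference itself. For Cyp1a1 liver exceeded adrenal gland by 2.74, 3.09 and 4.73 on days 1, 4 and 14 and pancreas by 4.74 on day 14, and day 14 exceeded day 1 in liver by 1.99. For Cyp1a2 liver exceeded adrenal gland by 0.915, 0.799 and 0.898 on days 1, 4 and 14 and pancreas by 0.917 on day 14. On normal scores of ranks the Cyp1a1 contrasts between liver and adrenal gland on days 1 and 14, the Cyp1a1 contrast between days, and all 4 Cyp1a2 contrasts were not called.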

How the results depend on the processing

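Each of the 24 liver differences of Cyp1a1 and Cyp1a2 from controls kept its side of the threshold under quantile normalization, fits without a variance trend, a filter on low scores, 1 probe set a gene, the mean of the probe sets of a gene, and with each animal left out. On normal scores of ranks 9 were no longer called. For Cyp1a1 at 60 mg/kg of AMG B these were 1.58, 1.22 and 2.11 on days 1, 4 and 14 (adjusted p 0.581, 0.435 and 0.0713). For Cyp1a2 at 30 mg/kg of AMG A they were 2.47, 1.33 and 2.54 (0.27, 0.511 and 0.268), and at 60 mg/kg of AMG B 2.15, 1.86 and 2.17 (0.581, 0.242 and 0.0628). With only the compared groups fitted 4 were no longer called: Cyp1a1 on day 1 at 60 mg/kg (2.73, adjusted p 0.172) and Cyp1a2 at 60 mg/kg on days 1, 4 and 14 (0.922, 0.819 and 0.903, adjusted p 0.152, 0.0596 and 0.142). That fit has 8 arrays; the cause of the other losses was not tested. With 1 animal left out Cyp1a1 at 60 mg/kg ran from 2.43 to 3.09, 2.89 to 3.19 and 4.62 to 4.96 on days 1, 4 and 14, Cyp1a2 at 30 mg/kg of AMG A from 1.82 to 1.93, 0.948 to 1.05 and 1.62 to 1.80, and Cyp1a2 at 60 mg/kg of AMG B from 0.870 to 0.960, 0.785 to 0.844 and 0.806 to 1.04. With the animal as a replicate block in the tissue contrasts, 16 results were unchanged and 1 lost its call, Cyp1a2 in liver minus adrenal gland on day 14 (0.898, adjusted p 0.0543). Among the other results, 1 animal left out ended 30 calls and made 1, of 1476, normal scores ended 10 of 180 (7 of them contrasts between tissues or days for Cyp1a1 and Cyp1a2, named with their values beside those results) and quantile normalization 2 of 180. Groups of 4 animals and standardised scores limit what can be read: a floor of the array cannot be told from a low level, and a single probe set carries each of 4 genes.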
